A study of Mus musculus with 20 samples.

Results

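The 10 immediate early genes Fos, Fosb, Jun, Junb, Jund, Egr1, Egr2, Egr3, Atf3 and Ier2 were chosen by name, and all 10 were among the 18727 genes tested. Each gene was read from its brightest probe, and 15 probes of the array matched a member in all. The probe used was well above background on all 20 arrays for 10 of the 10 genes, so none was kept through 1 group alone. The study measured RNA on 1-colour Agilent arrays, 1 array per sample, in hair follicle stem cells, the bulge cells from which a new hair grows in every cycle, taken from male mice. Aged mice were 24 months old, and the sources used here do not give their diet. HFD 3M mice had received a high fat diet for 3 months and were 5 months old, and ND 3M mice of the same age had received a normal diet. HFD 4d mice had received the high fat diet for 4 days and were 2 months old, and ND 4d mice of the same age had received the normal diet. For each of the 5 conditions there was 1 array of cells from anagen follicles, which are growing, and 3 of cells from telogen follicles, which are at rest. The title of the Aged anagen sample reads "Agen", and its source name gives it as aged. The strain, the way the cells were isolated and whether mice were pooled are not given in the sources used here. Nothing in the labels says that replicates came from separate mice, so each p-value rests on how far these samples differed, which may be technical variation only.

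Immediate early genes are transcribed within minutes of a stimulus, before any new protein is made, and their RNAs decay quickly. Growth factors and stress reach them through MAP kinases, which act on serum response factor (Srf) with its ternary complex partners of the Elk family at CArG boxes, and through CREB at cyclic AMP response elements. Fos and Fosb pair with Jun, Junb or Jund to form AP-1, a transcription factor that governs proliferation and differentiation in keratinocytes. Egr1, Egr2 and Egr3 are zinc finger transcription factors that bind GC-rich sites, Atf3 is a stress-induced relative of the AP-1 proteins, and Ier2 is a short-lived nuclear protein. Several of these RNAs are also known to be induced while tissue is taken apart into single cells.

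The windows of Fos and Egr2 are shown because Egr2 passed the test between anagen and telogen, Fos varied most between arrays, and both windows hold letters of the elements named above. Each runs over 250 bases up to the base before the start of transcription, 5′ to 3′, from RefSeq on build GRCm38.p6. Fos lies at chr12:85473640-85473889 on the plus strand, and 1 of the 5 windows listed for Egr2 lies at chr10:67537619-67537868, also on the plus strand. Capitals mark TGACG on either strand (CGTCA on the other), the core of the cyclic AMP response element, and the CArG box.
Fos: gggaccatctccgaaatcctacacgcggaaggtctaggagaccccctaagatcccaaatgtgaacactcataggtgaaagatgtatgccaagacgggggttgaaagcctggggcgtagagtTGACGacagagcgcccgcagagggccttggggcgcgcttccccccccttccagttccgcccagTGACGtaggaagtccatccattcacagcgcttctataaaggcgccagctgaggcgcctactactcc
Egr2: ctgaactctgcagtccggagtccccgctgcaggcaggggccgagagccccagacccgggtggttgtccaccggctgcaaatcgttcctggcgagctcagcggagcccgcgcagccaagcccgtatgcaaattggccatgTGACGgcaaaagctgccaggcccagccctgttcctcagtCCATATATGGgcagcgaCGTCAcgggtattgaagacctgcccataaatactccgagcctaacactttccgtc
In the Egr2 window, the CArG box began 72 bases before the start and stood between a TGACG at 111 bases and a CGTCA at 55 bases. In the Fos window, TGACG began 129 and 66 bases before the start, and TATAAA, left in lower case, 33 bases before it. Windows were listed for 7 of the 10 members. A CArG box lay in a window of 1 of these 7, Egr2, against 1.62% of all 27025 genes with a window. TGACG lay in a window of 5 of the 7 (Fos, Fosb, Junb, Egr2 and Atf3), against 19.8% of all genes. The full element TGACGTCA, which contains TGACG, was found in 0 of 7 (1.77% of all genes), and the AP-1 site TGANTCA in 0 of 7 (7.82%). TATAAA was found in 1 of 7 (8.94%). A match is a description of the letters in these windows, with both strands read. Sites farther than 250 bases upstream were not searched, so a gene without a match may still have the element there.

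Levels are given as log2 of the processed intensity minus the 75th percentile of the array, so that 0 is the brightness of the probe at that percentile, and differences are differences of these values. Since probes differ in how they bind, levels are compared between samples and not between genes. Per array, 60.7% to 83.5% of spots passed as well above background. HFD 3M telogen replicate 3 stood apart from the other arrays on the second principal component, with a score of 130.1, the next highest being 38.6. Of the telogen arrays, ND 4d telogen replicate 2 had the lowest median correlation with the others (0.876, against 0.886 for HFD 3M telogen replicate 3). Its highest correlation with any array, 0.888, was the lowest of the 20, and its score on the first component was the highest (89.4). The 12 markers of bulge stem cells, Cd34, Krt15 and Lgr5 among them, were well above background on all 20 arrays. Markers of suprabasal epidermis were also present on all arrays (6 of 6). For endothelium, Cdh5 and Kdr were above background on no array of any telogen group and on none of the 5 anagen arrays. On all arrays of the group, 2 of the 5 endothelial markers were well above background in ND 4d, 1 in Aged and 1 in ND 3M telogen. In HFD 3M, HFD 4d and anagen, 0 were. On all 5 anagen arrays, 6 of 6 sebocyte and 3 of 5 melanocyte markers were well above background. So were 4 of 7 macrophage and Langerhans cell markers and 2 of the 4 T cell markers measured. In such bulk samples, fewer cells of a type and less RNA per cell cannot be told apart.

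Fos, the AP-1 subunit with the widest range here, had levels of 4.25 (Aged), 2.42 (HFD 3M), 3.60 (ND 3M), 2.65 (HFD 4d) and 1.91 (ND 4d) on the anagen arrays. In telogen it had 1.26, 2.93 and -1.56 in Aged, 2.52, 3.17 and 1.26 in HFD 3M and 2.98, 0.89 and 0.17 in ND 3M. The younger telogen groups had 0.63, -1.83 and 0.03 in HFD 4d and -1.60, -5.42 and -0.73 in ND 4d. The range over all arrays was 9.67 on the log2 scale, with ND 4d telogen replicate 2 far below every other array. By group mean in telogen, Fos ran from HFD 3M (2.31 ± 0.97, SD, n = 3) through ND 3M (1.35 ± 1.46), Aged (0.88 ± 2.27) and HFD 4d (-0.39 ± 1.28) to ND 4d (-2.59 ± 2.50). No gap between neighbours in this order exceeded the larger SD of its groups.

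Egr1 is a zinc finger factor widely used as a readout of MAP kinase activity. Its anagen levels were 6.15 (Aged), 5.31 (HFD 3M), 5.84 (ND 3M), 5.12 (HFD 4d) and 4.79 (ND 4d). In telogen it had 4.96, 5.61 and 4.59 in Aged, 5.45, 5.20 and 4.22 in HFD 3M, 5.49, 3.84 and 3.91 in ND 3M, 3.93, 3.05 and 4.15 in HFD 4d and 3.50, 2.55 and 3.56 in ND 4d. The 3 ND 4d telogen arrays lay below every Aged, HFD 3M and ND 3M telogen array, and the share of all genes split in this way was not counted. Telogen means ran from Aged (5.05 ± 0.52) and HFD 3M (4.96 ± 0.65) through ND 3M (4.41 ± 0.93) and HFD 4d (3.71 ± 0.58) to ND 4d (3.20 ± 0.57), and each gap between neighbours was smaller than the larger SD beside it.

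Egr2, known in the follicle for its part in hair shaft progenitors, had anagen levels of 4.83 (Aged), 4.08 (HFD 3M), 4.51 (ND 3M), 3.86 (HFD 4d) and 3.37 (ND 4d). In telogen it had 1.77, 2.56 and 1.80 in Aged, 3.61, 3.86 and 2.97 in HFD 3M, 2.45, 2.74 and 2.90 in ND 3M, 2.63, -0.03 and 1.78 in HFD 4d and 3.11, 0.86 and 0.60 in ND 4d. The anagen array lay above all 3 telogen arrays of its own condition in 5 of 5 conditions. The share of all genes that lay so was not counted, so this is a description of the arrays. HFD 3M had the highest telogen mean (3.48 ± 0.46), followed by ND 3M (2.69 ± 0.23), Aged (2.04 ± 0.45), ND 4d (1.52 ± 1.38) and HFD 4d (1.46 ± 1.36). The gaps from HFD 3M to ND 3M and from ND 3M to Aged exceeded the SDs beside them, and the others did not.

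Egr3, which is closely related to Egr1, had anagen levels of 1.90 (Aged), 0.33 (HFD 3M), 1.72 (ND 3M), 1.12 (HFD 4d) and 1.22 (ND 4d). In telogen it had 0.18, 1.66 and 0.06 in Aged, 0.68, 0.81 and 0.65 in HFD 3M, -0.82, -1.46 and 0.12 in ND 3M, -0.11, -3.15 and -0.31 in HFD 4d and 0.13, -3.25 and -0.96 in ND 4d. The replicates numbered 2 of both 2-month groups were the lowest arrays for this gene. Telogen means ran from HFD 3M (0.72 ± 0.09) and Aged (0.63 ± 0.89) to ND 3M (-0.72 ± 0.79), HFD 4d (-1.19 ± 1.70) and ND 4d (-1.36 ± 1.73), and the gap from Aged to ND 3M was the one gap that exceeded the SDs beside it.

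Junb and Jund, AP-1 partners of Fos of which Jund is present without a stimulus in many cells, varied least of the 10 genes with the probes used. Junb stayed between 3.97 and 4.81 and Jund between 3.85 and 5.29 over all 20 arrays. The dimmer second probe of Junb ran from -3.18 (HFD 4d telogen replicate 2) to 0.55 (Aged anagen). It correlated with the probe used at 0.09, so the small range of Junb depended on the probe. Fosb, which like Fos needs a Jun partner, averaged 3.66 ± 1.23 in Aged, 4.33 ± 0.64 in HFD 3M, 3.25 ± 1.52 in ND 3M, 3.01 ± 1.38 in HFD 4d and 1.08 ± 2.42 in ND 4d telogen, with anagen arrays between 2.17 and 5.46. Jun lay between 0.09 and 3.01 in telogen and between 0.84 and 3.23 in anagen, with group means of 1.12 (ND 4d) to 2.19 (HFD 4d). Atf3 had telogen means from -1.76 ± 0.22 in ND 4d to 0.34 ± 0.89 in ND 3M and anagen levels from -3.57 (ND 4d) to 1.70 (Aged). Ier2 had telogen means from 0.87 ± 0.58 in HFD 4d to 1.45 ± 1.08 in Aged and anagen levels from 0.55 (HFD 3M) to 3.04 (Aged). With the probes used, the SD within telogen groups was 1.79 for Fos and 1.55 for Fosb, against 0.19 for Junb, 0.27 for Jund and a median of 0.67 over all genes. Among the 1000 genes nearest in level, 96.9% had a smaller SD than Fos, 99.8% a smaller one than Fosb and 97.1% a smaller one than Egr1 (SD 0.67), but 11.7% a smaller one than Junb. Fos, Fosb and Egr1 therefore spread more between replicates of a group than most genes of like level.

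**Figure D1:**
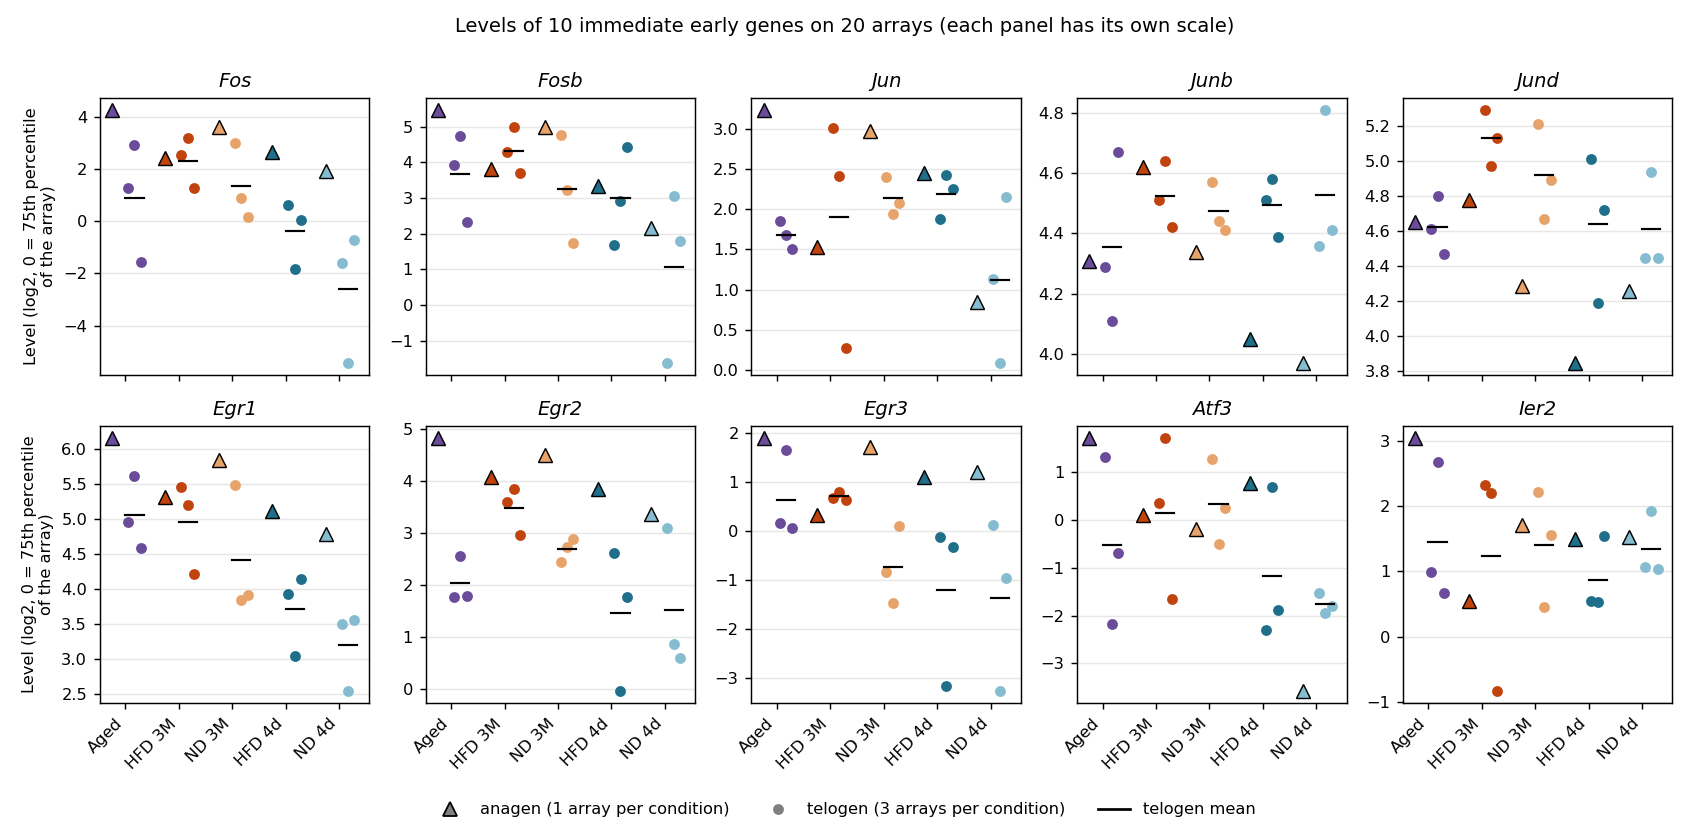
Level of each gene on every array (y axis, log2, 0 = the 75th percentile of the array, own scale in each panel) by condition (x axis). Triangles are the anagen arrays, circles the 3 telogen arrays and lines their mean. Fos runs from -5.42 to 4.25, whereas Junb stays between 3.97 and 4.81 with the probe used. The Aged anagen array is the highest of the 5 anagen arrays for 8 of the 10 genes.

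Several members varied together from array to array. Over the 15 telogen arrays, Fos and Egr1 had a Pearson correlation of 0.88 (Spearman 0.87), which was 0.85 after each group's mean was subtracted. Egr1 and Egr3 had 0.76, Egr2 and Egr3 had 0.74 and Fos and Egr3 had 0.72. Of the 45 pairs of members, 11 were above 0.5, and the median was 0.31, or 0.19 after the group means were subtracted. Fos and Fosb, at 0.54, came to 0.13 once the group means were removed. Junb had -0.58 with Egr3 (Spearman -0.40) and -0.47 with Fos (Spearman -0.17), and Jun with Jund had 0.00. ND 4d telogen replicate 2 held the lowest telogen level of Fos (-5.42) and Egr3 (-3.25) and the highest of Junb (4.81). The values of a pair share arrays, scaling and labelling, and the correlations are a description over 15 arrays.

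**Figure D2:**
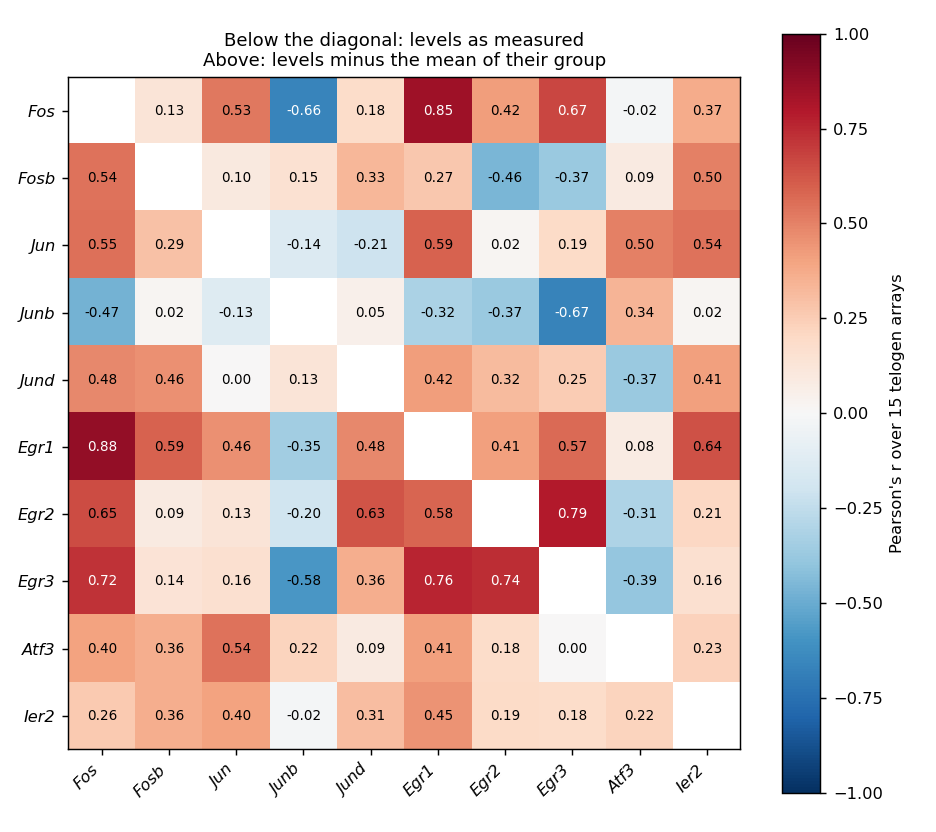
Pearson's r between members over the 15 telogen arrays, below the diagonal for levels as measured and above it for levels minus their group mean. Fos, Egr1, Egr2 and Egr3 form the block with the highest values, with 0.88 for Fos and Egr1. Junb is negative with Fos (-0.47, Spearman -0.17) and Egr3 (-0.58, Spearman -0.40).

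The genes outside the list whose levels ran most like the mean of the members over the 15 telogen arrays were Zfp36 (Pearson 0.84), Cep89 (0.83), Prelp (0.82), Gm5084 (0.81), Gm10941 (0.81), Itpkb (0.80), Dennd4c (0.80) and Smox (0.79). Zfp36 encodes a protein that speeds the decay of short-lived RNAs and is itself a primary response gene. The closest to Fos were Naa25, Zfp750 and Cbx5 (0.85 each). Prelp (0.85), Gm5084 (0.84) and Zfp36 (0.84) were closest to Egr1, and Gjb6, Pkp1 and Setd1a (0.86 each) to Egr2. Egr3 was matched best by Plagl2 (0.84), Il1r2 (0.83) and D17H6S56E-5 (0.82). These are the top values of a ranking of all genes tested over only 15 arrays, where unrelated genes can also reach high values. Shared regulation was not tested.

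The question of the hair cycle was addressed by setting the 5 anagen arrays against the 15 telogen arrays, with condition as a factor. Egr2 and Egr1 rose in anagen, 2 of the 10 members, and 0 fell, against 2.81% of all genes that rose and 3.31% that fell (limma, adjusted p below 0.05). Over all genes 526 rose and 619 fell, a split that became 653 and 336 when arrays were scaled by their median instead. Egr2 averaged 4.13 ± 0.57 in anagen (SD, n = 5) and 2.24 ± 1.11 in telogen (n = 15), a log2 difference of 1.89 ± 0.43 (SE), or 3.72-fold, with an adjusted p of 0.0145 by limma. Egr1 averaged 5.44 ± 0.55 in anagen and 4.27 ± 0.93 in telogen, a log2 difference of 1.18 ± 0.31 or 2.26-fold, with an adjusted p of 0.0339 by limma. For both genes the anagen array was above the telogen mean in 5 of 5 conditions, as it was for Fos, and 9.25% of all genes did so.

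Within the slides that held both phases of a condition, Egr2 was higher in anagen by 2.79 in Aged, 1.82 in ND 3M and 1.85 in ND 4d. Egr1 was higher by 1.43 in ND 3M and 1.59 in ND 4d, and in Aged it had 6.15 in anagen and a mean of 5.05 in telogen. With slide as a block, Egr2 gave 2.15 (adjusted p 0.0448, limma) and Egr1 gave 1.37 and did not pass (adjusted p 0.0701, limma). All anagen arrays lay in column 1 of their slides and all telogen arrays in columns 2 to 4, so phase and column cannot be told apart. The calls rested on few arrays. The limma adjusted p of Egr2 was 0.0649 without the HFD 4d anagen array and 0.0635 without the Aged anagen array. That of Egr1 was 0.115 without the ND 3M anagen array, 0.121 without ND 4d anagen, 0.109 without HFD 4d anagen, 0.0778 without Aged anagen and 0.0501 without ND 3M telogen replicate 3.

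Fos averaged 2.96 ± 0.94 in anagen and 0.31 ± 2.32 in telogen, a log2 difference of 2.65 ± 0.82 that did not pass (adjusted p 0.0648, limma). Without the HFD 3M anagen array it came to 3.29 with an adjusted p of 0.0294 by limma, and without Aged telogen replicate 2 to 2.82 with 0.0447. Without the ND 4d anagen array the difference of Fos was 2.19. Over all arrays left out in turn, its limma adjusted p reached 0.216. Egr3 averaged 1.26 ± 0.61 in anagen and -0.39 ± 1.38 in telogen, a difference of 1.65 ± 0.57 (adjusted p 0.0994, limma). Its other 2 probes passed, with differences of 2.48 ± 0.54 (adjusted p 0.0115, limma) and 3.40 ± 0.94 (adjusted p 0.0411, limma), and correlated with the probe used at 0.78 and 0.83 over 20 arrays. Without the HFD 3M anagen array the probe used gave 2.15 (adjusted p 0.0337, limma), and without the ND 4d anagen array 1.41. Over all arrays left out in turn, the limma adjusted p of this probe reached 0.274.

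The remaining AP-1 genes did not pass. Jund averaged 4.37 ± 0.37 in anagen and 4.79 ± 0.32 in telogen, a difference of -0.42 ± 0.17 (adjusted p 0.166, limma), while its dimmer probe fell by 0.66 (adjusted p 0.0433, limma). Junb gave -0.21 ± 0.15, and its second probe, which correlated with the first at only 0.09, gave -0.32 ± 0.47. Fosb gave 0.89 ± 0.67, Jun 0.40 ± 0.39, Ier2 0.40 ± 0.48 and Atf3 0.35 ± 0.68. Atf3 gave -0.04 with slide as a block, -0.04 without the HFD 4d anagen array and -0.12 without the Aged anagen array. The median of the members was 0.65, against -0.16 for all genes, and 8 of 10 were above 0. At an unadjusted p below 0.05 there were 5 members, against 22.9% of all genes.

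**Figure D3:**
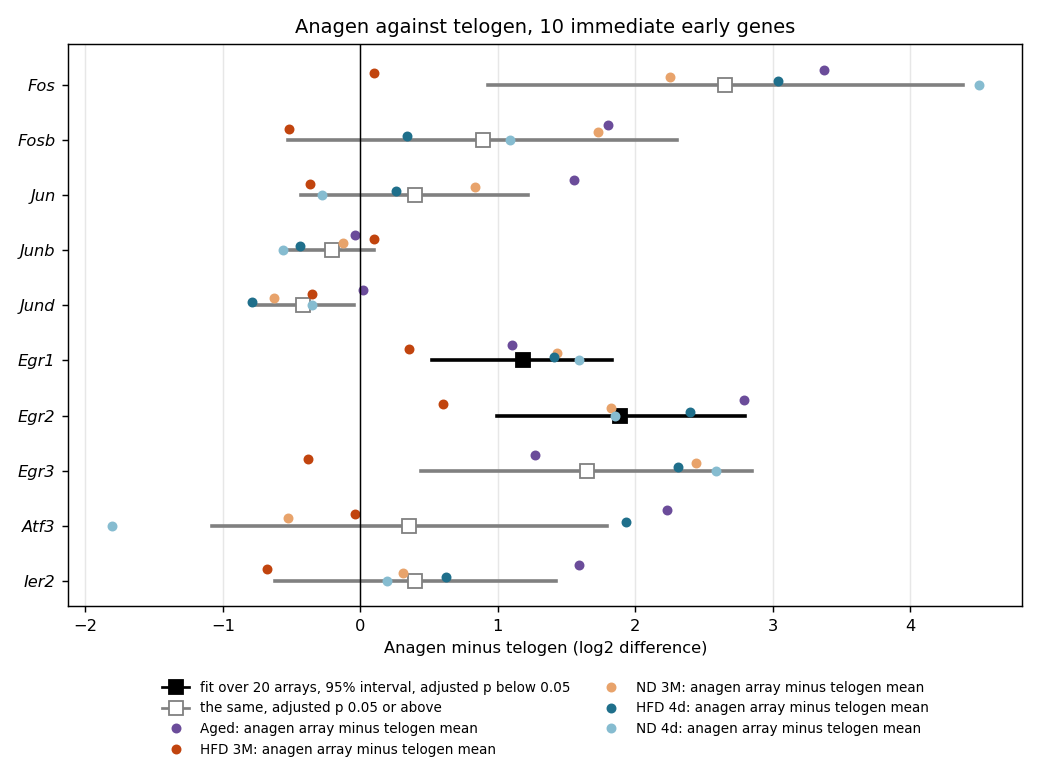
Anagen minus telogen (x axis, log2 difference) for each member. Squares and bars are the fit over 20 arrays with its 95% interval, filled where the adjusted p was below 0.05, and dots are each anagen array minus the telogen mean of its condition. In HFD 3M and HFD 4d the anagen array lay on another slide than the telogen arrays. Egr1 (1.18) and Egr2 (1.89) passed, and the HFD 3M dot is the lowest for 7 of the 10 members, Fos (0.10) and Egr3 (-0.38 with the probe used, 1.95 and 1.96 with its other 2 probes, which are not drawn) among them.

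The conditions differed in how far the anagen array lay from its telogen arrays, as a description of single arrays with no test. In Aged, ND 3M and ND 4d both phases shared a slide. In HFD 3M and HFD 4d the anagen array lay on another slide than the telogen arrays, so phase and slide cannot be told apart within these conditions. The median difference over the members was 1.57 in Aged, with 8 of 10 members above all 3 telogen arrays. It was -0.19 in HFD 3M (1 of 10) and 1.13 in ND 3M (6 of 10). Egr3 in HFD 3M lay below its telogen arrays with the probe used, but above all 3 with each of its other 2 probes, by 1.95 and 1.96 over their means. In the 2-month mice the median difference over the members was 1.01 in HFD 4d (6 of 10) and 0.64 in ND 4d (4 of 10). Among the 5 anagen arrays themselves, Aged held the highest level of 8 members and HFD 3M that of Junb and Jund, while ND 4d held the lowest level of 7 members. The 10 values of an array come from 1 sample, so they are not independent. The share of all genes that lay so was not counted, so these counts are not read as a result about the members.

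A few markers of other cells passed between the phases as well, beside 2.81% of all genes that rose and 3.31% that fell. Among those of macrophages and Langerhans cells, T cells, endothelium, melanocytes, sebocytes and adipocytes, 0 passed. The summed signal of the 6 fibroblast markers, in units of the 75th percentile of the array, was 0.992 to 2.43 in anagen and 2.28 to 9.95 in telogen, with 1 of the 4 tested higher and 1 lower by limma. Dcn was on no array of any telogen group. That of the 4 red blood cell markers measured was 0.405 to 1.22 in anagen and 0.39 to 5.78 in telogen, with 1 of 3 tested lower. Suprabasal markers summed to 167 to 249 in anagen and 109 to 263 in telogen, with 1 of 6 higher. The 12 bulge markers summed to 391 to 575 in anagen and 418 to 739 in telogen, and 3 of 12 were lower. Their part in the change of Egr1 and Egr2 was not tested.

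Of 52 further primary response genes tested, 2 rose and 7 fell in anagen (limma), beside 2.81% and 3.31% of all genes, and their median was -0.09, against -0.16 for all genes. With arrays scaled by their median, 2 rose and 4 fell, with medians of 0.12 for the list and 0.06 for all genes. Gadd45a, a growth arrest gene, rose by 1.97 ± 0.54, and Cebpb, a bZIP factor of differentiating keratinocytes, rose by 1.01 ± 0.22. The fallen genes were Ccn2 (-1.63 ± 0.26) and Ccn1 (-1.18 ± 0.33), matrix proteins that are targets of YAP and Srf, Csrnp1 (-1.89 ± 0.46), the BMP target Id1 (-1.76 ± 0.28), the clock gene Per1 (-1.44 ± 0.24), the NF-kappaB inhibitor Nfkbia (-1.08 ± 0.25) and Klf4 (-0.78 ± 0.15). Among 11 tested relatives of the AP-1 and Egr families, 0 rose and 2 small Maf factors fell, Maff by 2.61 ± 0.64 and Mafk by 1.29 ± 0.24. Of 21 upstream kinases and factors, Elk3, an Srf partner, rose (2.07 ± 0.59) and 0 fell, while with quantile scaling 0 rose. Srf itself gave -0.02 ± 0.26 and the Egr corepressor Nab2 gave 0.39 ± 0.34.

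Of 16 heat shock genes, a class also known to be induced on cell isolation, 0 rose and 2 fell in anagen, beside 2.81% and 3.31% of all genes. Hspb8 fell by 1.07 ± 0.18 and Hspb1 by 0.65 ± 0.17, while Hspa1a gave -0.05 ± 0.29. The list's median was 0.04, against -0.16 for all genes, and under median scaling 0 rose and 1 fell. With normexp background correction or quantile scaling, 1 rose and 2 fell. Among the best known of the other primary response and AP-1 genes, Nr4a1 gave 1.70 ± 0.91 (adjusted p 0.277, limma), Btg2 0.22 ± 0.38, Zfp36 0.16 ± 0.25, Dusp1 -0.40 ± 0.24, Fosl2 -0.46 ± 0.16, Klf6 -0.51 ± 0.20, Myc -0.64 ± 0.21 and Ier3 -0.68 ± 0.44, and none of these 8 passed. Fosl1, Batf, Atf7, Cxcl2, Il6 and Nab1 were not tested.

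**Figure D4:**
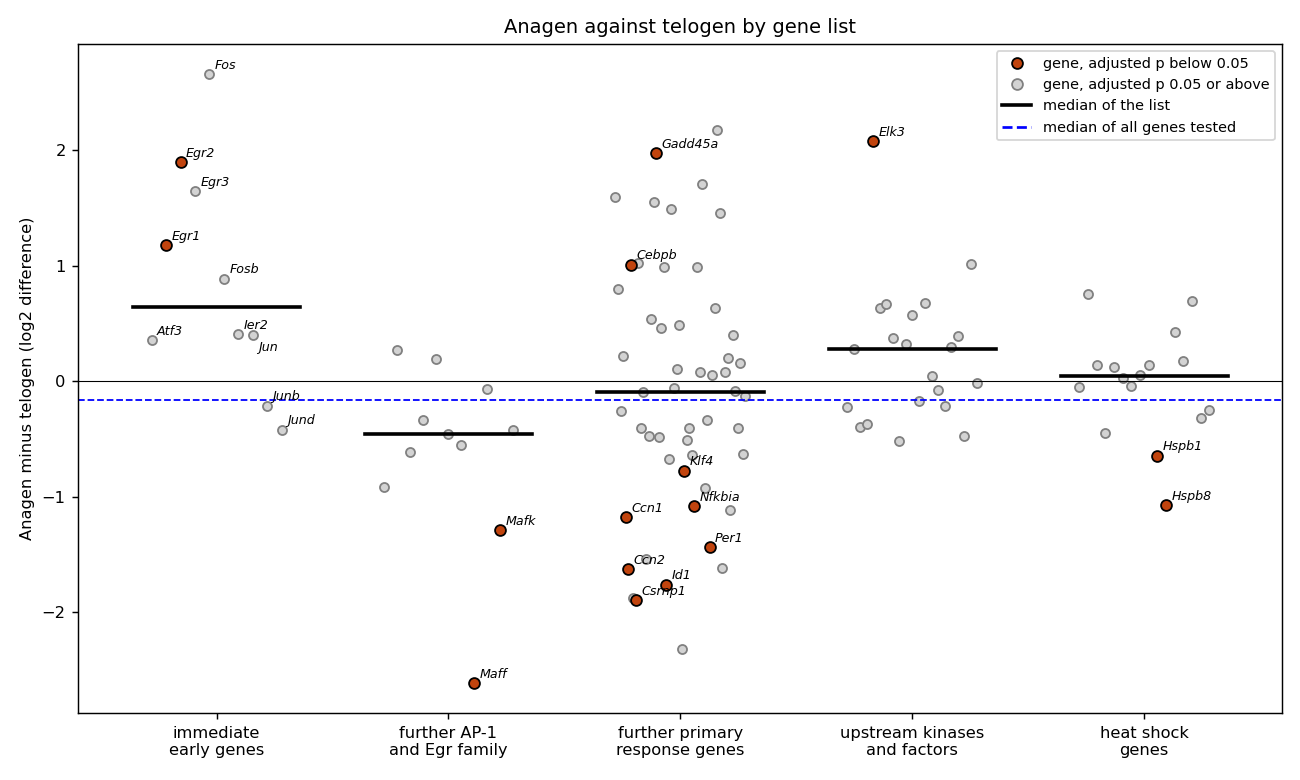
Anagen minus telogen (y axis, log2 difference) for the genes of 5 lists (x axis). Filled points passed an adjusted p of 0.05, black lines are list medians and the dashed line is the median of all genes (-0.16). The 2 filled immediate early genes lie above 0, whereas 7 of the 9 filled further primary response genes and both filled small Maf genes lie below 0.

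Ageing was addressed in telogen by setting Aged mice against each normal diet group, and 0 of 10 members passed in either comparison. Against ND 4d, 0.032% of all genes rose and 0.00534% fell (limma, adjusted p below 0.05). Egr1 had 4.96, 5.61 and 4.59 in Aged and 3.50, 2.55 and 3.56 in ND 4d, so the groups did not overlap, as for 3.97% of all genes in this direction. Its log2 difference was 1.85 ± 0.53 (adjusted p 0.353, limma). Fos gave 3.47 ± 1.34 (adjusted p 0.547, limma), Fosb 2.58 ± 1.16, Egr3 2.00 ± 0.91 and Atf3 1.23 ± 1.03. The median of the members was 0.90, against -0.09 for all genes, with 9 of 10 above 0. At an unadjusted p below 0.05 there were 4 members (Fos, Fosb, Egr1 and Egr3), against 7.85% of all genes. Without ND 4d telogen replicate 2, the difference of Fos was 2.05.

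Against ND 3M, 0.0587% of all genes rose and 0.00534% fell, and no member had an unadjusted p below 0.05, against 11.9% of all genes. Egr3 gave 1.35 ± 0.91 and its other probes -0.30 ± 0.94 and -0.80 ± 1.62, so its direction depended on the probe. Egr1 gave 0.64 ± 0.53 and Jund -0.30 ± 0.28, while the differences of the other members were smaller than their SE with the probes used. Junb gave -0.12 ± 0.24 with the probe used and 1.19 ± 0.65 with its second probe, and neither passed. The arrays of Jun did not overlap, lower in Aged, as for 6.46% of all genes. The members' median was -0.21, against 0.06 for all genes, and 0.14 without ND 3M telogen replicate 1. Set against the high fat diet groups, Aged telogen gave 1.34 ± 0.53 for Egr1 (adjusted p 0.65, limma) relative to HFD 4d and -1.44 ± 0.71 for Egr2 (adjusted p 0.409, limma) relative to HFD 3M.

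Mice of 5 months were also set against mice of 2 months on normal diet, which compares ages and diet times together. In ND 3M against ND 4d, 0 members passed, where 0.00534% of all genes rose and 0.0107% fell. Fos had 2.98, 0.89 and 0.17 in ND 3M and -1.60, -5.42 and -0.73 in ND 4d, a log2 difference of 3.93 ± 1.34 (adjusted p 0.348, limma). Egr1 gave 1.21 ± 0.53 (adjusted p 0.403, limma), Atf3 2.10 ± 1.03, Fosb 2.17 ± 1.16, Egr2 1.17 ± 0.71, Jun 1.02 ± 0.63 and Jund 0.31 ± 0.28. The groups did not overlap for Fos, Egr1 and Atf3, against 4.41% of all genes. The median of the members was 1.09, against -0.14 for all genes, and 2 members (Fos and Egr1) had an unadjusted p below 0.05, against 11.8% of all genes. Fos gave 2.52 without ND 4d telogen replicate 2, and Egr1 gave 0.67 without ND 3M telogen replicate 1.

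The comparisons with ND 4d share its 3 arrays, and ND 3M, ND 4d and Aged telogen lay on separate slides. A slide block could be fitted only through the single anagen arrays. Under it the members' median was 1.39 for Aged against ND 3M, 1.02 for Aged against ND 4d and 0.18 for ND 3M against ND 4d, where Fos gave 0.10, Egr1 0.14 and Egr2 -0.39. Spots that passed as above background made up 70.3% to 74.6% on the Aged telogen arrays, 73.7% to 77.6% on those of ND 3M and 77.1% to 83.5% on those of ND 4d, and the part of this share in the differences was not tested. Summed suprabasal marker signal was 126 to 236 in Aged, 172 to 217 in ND 3M and 120 to 211 in ND 4d telogen, and that of red blood cell markers 1.17 to 5.78, 2.08 to 4.64 and 0.579 to 2.59 in the same order. The 12 bulge markers summed to 418 to 734 in Aged, 673 to 713 in ND 3M and 558 to 739 in ND 4d telogen. In Aged 12 of the 12 lay below ND 3M (median -0.46) and 10 of 12 below ND 4d (median -0.43), and 5 of 5 adipocyte markers lay above ND 3M (median 0.63), with 0 passing by limma. Over all genes the median was 0.06 against ND 3M, with 53.5% above 0, and -0.09 against ND 4d, with 43.7% above 0. The adipocyte signal was low, with sums of 1.24 to 3.28 in Aged and 1.05 to 1.35 in ND 3M. Fabp4 and Cidec were above background on no Aged telogen array. The part of these markers in the members' differences was not tested either.

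None of the further lists had a member that passed in these 3 comparisons. Of 52 further primary response genes, the smallest p belonged to Klf10 in Aged against ND 4d (1.46 ± 0.41, adjusted p 0.341, limma) and in Aged against ND 3M (1.58 ± 0.41, adjusted p 0.226, limma). In ND 3M against ND 4d it belonged to Gadd45a (-2.93 ± 0.92, adjusted p 0.341, limma). The heat shock gene Hspa1a gave -0.50 ± 0.39 in Aged against ND 4d and -1.30 ± 0.39 in Aged against ND 3M.

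**Figure D5:**
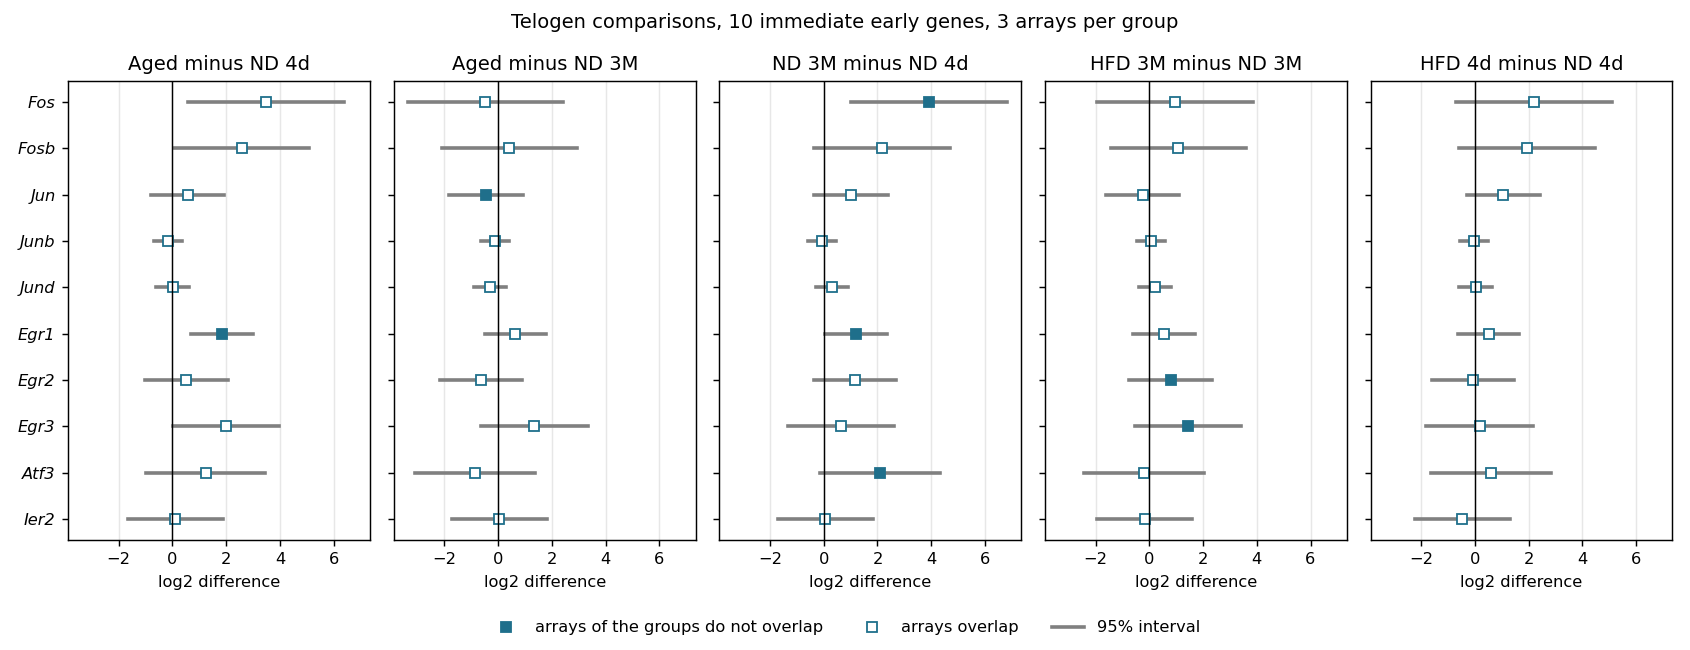
Log2 difference (x axis) of each member in 5 telogen comparisons, with its 95% interval, 3 arrays per group. Filled squares mark genes whose arrays did not overlap between the groups, and 0 of the 10 members passed an adjusted p of 0.05 in any panel. The intervals of Fos span several log2 units, while Junb and Jund lie near 0 with the probes used.

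The high fat diet was compared with the normal diet of the same duration, on the same slide in each case. No member passed, where 0% of all genes passed in either direction after 3 months and after 4 days, and every member had an adjusted p of 1 by limma. At an unadjusted p below 0.05 there were 0 of 10 members in either comparison, against 3.9% of all genes (730) after 3 months and 4.36% (817) after 4 days. Each diet filled its own row of the slide, and the effects of diet and of row cannot be told apart.

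After 3 months, Egr3 had 0.68, 0.81 and 0.65 in HFD 3M and -0.82, -1.46 and 0.12 in ND 3M, a log2 difference of 1.44 ± 0.91. Its other probes gave 0.02 ± 0.94 and -0.29 ± 1.62. Egr2 gave 0.79 ± 0.71 and Egr1 0.55 ± 0.53, and the other members lay within their SE of 0 with the probes used. The second probe of Junb gave 1.21 ± 0.65 and did not pass. The arrays of Egr2 and Egr3 did not overlap between the diets, against 4.15% of all genes. The members' median was 0.38, against -0.04 for all genes. Without HFD 3M telogen replicate 3, the array that stood apart on the second principal component, it was 0.89, and 10 rather than 7 members lay above 0.

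After 4 days, Fos had 0.63, -1.83 and 0.03 in HFD 4d and -1.60, -5.42 and -0.73 in ND 4d, a log2 difference of 2.19 ± 1.34, which was 0.77 without ND 4d telogen replicate 2. Fosb gave 1.93 ± 1.16 and Jun 1.06 ± 0.63, and the other members lay within their SE of 0 with the probes used. For Junb the second probe gave -0.97 ± 0.65 and did not pass. The members' median was 0.34, against -0.05 for all genes. Averaged over both durations, Fos gave 1.58 ± 0.94, Fosb 1.51 ± 0.82, Egr3 0.80 ± 0.64 and Egr1 0.53 ± 0.37, again with 0 members passing and 0 at an unadjusted p below 0.05, against 4.29% of all genes. With the probes used, the difference between the diet effects at the 2 durations ran from -1.31 ± 0.89 for Jun to 1.26 ± 1.29 for Egr3, with 0 members passing or at an unadjusted p below 0.05, against 3.74% of all genes. The other probes of Egr3 gave -0.79 ± 1.33 and -1.01 ± 2.28, so its direction depended on the probe. The second probe of Junb gave 2.18 ± 0.91 (unadjusted p 0.0341, limma) and did not pass after adjustment. The 95% intervals of the members reached 0.52 to 2.90 log2 units on either side of their differences at 1 duration. They reached 0.36 to 2.05 for the mean of both durations and 0.73 to 4.11 for the difference between durations. Changes smaller than these were not detectable. The intervals are not adjusted for the number of genes, so passing after adjustment took larger changes still.

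Among the further lists, 0 genes passed in the diet comparisons. The smallest p of the upstream factors after 4 days was that of Srf (1.34 ± 0.46, adjusted p 1, limma). Among further primary response genes it was that of Socs3 after 4 days (-2.96 ± 0.96, adjusted p 1, limma) and of Gadd45a after 3 months (2.63 ± 0.92, adjusted p 1, limma).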

How the data were processed

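RNA of hair follicle stem cells was measured on 20 1-colour Agilent arrays. Total RNA was purified on columns and labelled with Cy3, per the labels' protocols. The deposited scanner files hold the processed intensity of each spot, which Agilent Feature Extraction 10.7.1.1 subtracted for background and detrended within the array, per the file headers, with no scaling between arrays. The deposited series table holds the same values as linear signal divided by the 75th percentile of the array, without centring, and correlated at 1 with them on every array, with column medians from 0.088 to 0.168.

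From the deposited intensity, log2 values minus the 75th percentile of each array were computed. Control spots and 62 to 159 outlier-flagged spots per array were left out of 59305 spots, spots of a probe were averaged, and 0 spots were saturated. A probe was kept if well above background on all 3 arrays of a telogen group or on at least 3 anagen arrays (43395 of 56605). Symbols came from accessions matched to RefSeq: 32994 probes had 1 symbol and 23611 none or several. The brightest probe stood for each gene. limma 3.58.1 (R 4.3.3, data.table version 1.17.8) compared group means over 15 telogen arrays, and anagen with telogen over 20 arrays with condition as a factor, with two-sided tests and Benjamini-Hochberg adjustment over all genes at 0.05. The procedure was tested on simulated data.

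The members and gene lists were chosen with earlier results of these data known. All 10 members are named in each comparison or covered by a count. Of the further lists, genes past the threshold are named, or where none passed, up to 4 with the smallest p. Same-numbered replicates were checked for pairing: over 30 pairs the correlation of deviations from the group means ran from -0.14 to 0.06, with 0 above 0.1, so the numbers were not used as pairs. The number of arrays limits the precision. Alternatives were background correction by normexp (offset 50), quantile and median scaling, other percentile probes, the series table, filters on dim probes, the mean over probes, trend and robust moderation, array weights, the arrays compared alone, a replicate block, a slide block and leaving out each array. Replacing the brightest probe of a member by its other probes was chosen after seeing the data.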

Additional observations from a re-analysis of the deposited data

Results flagged for a closer look

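Egr3 and Atf3 had anagen arrays on opposite sides of all telogen arrays of their own condition in different conditions, and each of these differences rests on 1 anagen array per condition and was not tested. The HFD 3M and HFD 4d anagen arrays also lay on another slide than their telogen arrays, so phase and slide cannot be told apart within these conditions. Egr3 in HFD 3M lay 0.38 below its telogen mean (-0.38) and below all 3 telogen arrays with the probe used. Its other 2 probes did not show this, with 0.45 in anagen against -2.99 to -0.52 in telogen for one and 2.08 against -0.58, 0.44 and 0.49 for the other. With the probe used, in the other conditions Egr3 lay above, by 1.27 in Aged, 2.44 in ND 3M, 2.31 in HFD 4d and 2.59 in ND 4d. With that probe alone, the anagen minus telogen difference was higher in Aged than in HFD 3M by 1.65, and HFD 3M differed from ND 3M by -2.82, from HFD 4d by -2.69 and from ND 4d by -2.97. With each of the other probes, the anagen array lay above all 3 telogen arrays in 5 of 5 conditions, and the share of all genes that lay so was not counted. Atf3 lay above all telogen arrays in Aged (2.23 above their mean) and in HFD 4d (1.93), and below all of them in ND 4d (-1.81). The difference was 4.04 for Aged minus ND 4d and 3.74 for HFD 4d minus ND 4d.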

How the results depend on the processing

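The results counted for single members were all 10 in anagen against telogen and, elsewhere, those whose difference exceeded its SE. Of these 36 results, 440 values under other settings kept direction and side of the threshold, 4 newly passed, 1 no longer passed and 3 changed sign. With 1 array left out, 374 stayed, 7 no longer passed, 3 newly passed and 2 changed sign. With another probe, 13 stayed, 3 newly passed and 3 changed sign. Differences within their SE, some of which also changed sign with another probe, are not in these counts. The cause was not tested for any of these changes.

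In anagen against telogen, 3 members passed with normexp, 3 with the mean over probes, 4 with array weights and 1 with the slide block, and genes called (526 higher and 619 lower) came to 1910 with array weights and 677 with the slide block. Scaling by the median gave 653 higher and 336 lower genes there, with a median over all genes of 0.06 instead of -0.16 (quantile scaling -0.02). It gave medians of -0.22 instead of 0.06 in Aged against ND 3M, -0.22 instead of -0.09 in Aged against ND 4d (5 higher and 4 lower instead of 6 and 1), 0 instead of -0.14 in ND 3M against ND 4d and -0.19 instead of -0.05 in HFD 4d against ND 4d. In Aged against ND 3M, genes called (12) were 2 with normexp, 0 with probes above background on all arrays, 20 with array weights, 0 with the arrays compared alone and 5 with the slide block. In Aged against ND 4d (7) they were 3 with normexp, 12 with quantile scaling, 0 with the stricter filter, 0 with the arrays compared alone and 1 with the slide block. In ND 3M against ND 4d (3) they were 2 with trend and robust moderation, 5 with array weights, 0 with the arrays compared alone and 7 with the slide block. In the diet comparisons (0), HFD 3M gave 1 with quantile scaling and 1 with median scaling, HFD 4d gave 1 with the arrays compared alone, and diet by duration gave 1 with median scaling and 1 with the arrays compared alone.

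With replicate number as a block, 7 genes were called in Aged against ND 3M and 0 in ND 3M against ND 4d, and 0 members passed in any telogen comparison. With the slide block the members' median was 1.39 in Aged against ND 3M and 0.18 in ND 3M against ND 4d, Jund gave 0.37 in Aged against ND 3M, Egr2 gave -0.39 in ND 3M against ND 4d, Egr1 in anagen 1.37 (no longer passing) and Atf3 in anagen -0.04. Other probes of Egr3 gave -0.30 and -0.80 in Aged against ND 3M, and 1 gave -0.29 in HFD 3M against ND 3M. No replicate block could be fitted in anagen, which has 1 array per condition.

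With 1 array left out, genes called ran from 555 (without ND 3M anagen) to 2056 (without HFD 3M anagen) and members called from 0 to 4 in anagen, from 5 to 24 genes (without Aged telogen replicate 2) in Aged against ND 3M, from 4 to 6 in Aged against ND 4d and from 0 to 4 in ND 3M against ND 4d. They ran from 0 to 1 in HFD 3M, HFD 4d and diet by duration, and from 0 to 2 in the mean of both durations. Atf3 in anagen ran from -0.12 to 0.89, with -0.04 without the HFD 4d anagen array. With 3 arrays per group and 1 anagen array per condition, differences smaller than their intervals were not detectable. These intervals are not adjusted for the number of genes, so passing after adjustment took larger differences still.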
